A study of Mus musculus with 31 samples.

Results

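The Wnt system of the kidney was followed here through 44 genes: 13 Wnt ligands, the 8 Frizzled receptors Fzd1 to Fzd8, the co-receptors Lrp5 and Lrp6, the R-spondins Rspo1 and Rspo3, their receptors Lgr4, Lgr5 and Lgr6, the ubiquitin ligases Rnf43 and Znrf3, 8 secreted antagonists, Axin1 and Axin2, and the 4 TCF/LEF transcription factors. They were chosen by symbol. Of the 23509 genes in the count files, 56 carried a name of these families, and the 44 had at least 10 counts in at least 5 kidneys. The other 12 (Dkk1, Dkk4, Fzd9, Fzd10, Rspo2, Rspo4, Wnt1, Wnt2b, Wnt3, Wnt3a, Wnt8a and Wnt8b) stayed under that minimum and reached no more than 12 counts in any kidney. All 44 genes also passed the filter of the statistical model. Lgr6, Rspo1, Wnt6 and Wnt10b reached the minimum only with the PBS-treated kidneys counted, so their choice favoured high values in that group. Counts for each comparison are also given for the 40 genes without these 4. Among those 40, Wnt7a had 10 counts or more in no wild-type kidney, and Sfrp5, Wnt2 and Wnt16 in 1 each. They reached the minimum through Pcy/CD1 kidneys of both treatments, so their choice favoured high values there. Their p-values and their place in counts against wild type carry that limit.

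RNA-seq of whole kidneys gave 31 libraries, which the labels number as separate samples and which are called mice here. A legend of the study counts fewer animals per group than there are libraries, and the labels do not say whether libraries share an animal. If some do, the p-values are too small. No pair of libraries within a group agreed within sampling noise, the typical squared difference of counts being 1.64 to 53.8 times that noise over 167 pairs (genes with at least 200 counts in a pair). The lowest, 1.64, was that of wild-type mice 3 and 4, beside 3.97 to 4.99 for the other 9 wild-type pairs. Without either of these mice 28 of the 44 genes differed between PBS and wild type, beside 29 with both. Pcy/CD1 mice are a model of slowly progressing kidney cysts on the CD1 background. From 5 weeks of age they received subcutaneous PBS (12 mice) or RGLS4326 at 25 mg/kg once a month (14 mice) for 25 weeks, and kidneys were taken at 30 weeks. RGLS4326 is a short chemically modified oligonucleotide that binds and inhibits the microRNA miR-17. For the PBS mice the labels disagree on the schedule, since the per-sample label reads weekly and the protocol monthly. The 5 wild-type CD1 mice were age-matched, male and untreated, and came from other suppliers than the Pcy/CD1 mice. The cystic disease, the colony and the injections therefore cannot be told apart in comparisons with wild type. Each library held 14892524 to 27459962 counts on genes.

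Wnt proteins are secreted, lipid-modified signals that bind a Frizzled receptor together with LRP5 or LRP6. In the canonical branch this stops the destruction complex, which contains AXIN1 or AXIN2, from degrading beta-catenin, and beta-catenin then acts with TCF/LEF factors on target genes. R-spondins strengthen the signal by binding LGR4, LGR5 or LGR6 and removing RNF43 and ZNRF3, which otherwise clear Frizzled from the cell surface. Axin2, Rnf43, Znrf3, Lgr5, Lef1 and Tcf7 are widely used target genes of the canonical branch. In the developing kidney, Wnt9b from the ureteric bud induces nephrons, Wnt4 drives the new nephron cells to become epithelium, and Wnt7b from the collecting duct is needed to form the medulla.

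Because the drug acts on miR-17, the sequence that miR-17 reads was looked up in the genes. The mature mouse miR-17-5p is printed from RefSeq, with the seed (bases 2 to 8) in capitals, and lies at chr14:115043684-115043706 on the plus strand of GRCm38. The longest annotated 3′UTR of each gene (GENCODE vM21, GRCm38) was searched on the transcript strand for GCACTTT, the letters that pair with that seed, or GCACTTTA, which adds an A. Of the 44 genes 6 held a match (13.6%), beside 2470 of 21004 genes with an annotated 3′UTR (11.8%). The matches of Wnt9b and Fzd3 and the longest match of Sfrp4 are shown with their neighbouring bases, the matching letters in capitals.

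mmu-miR-17-5p: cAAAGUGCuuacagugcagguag
Wnt9b, longer match, chr11:103730261-103730268, minus strand, exon 4 of 4: gagcaagggaaGCACTTTAggcttgggtgg
Wnt9b, shorter match, chr11:103728301-103728307, minus strand, exon 4 of 4: ggatttgtaaaGCACTTTccatcttcaga
Fzd3, longer match, chr14:65192537-65192544, minus strand, exon 7 of 7: tgtttttcttaGCACTTTAactgtgagtgt
Sfrp4, longer match, chr13:19631537-19631544, plus strand, exon 5 of 5: cagtgttctggGCACTTTAgtgggtcacag

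Sfrp4 held a further 2 shorter matches, and Rspo3, Wnt16 and Fzd8 held 1 shorter match each. The letters describe these 3′UTRs and are no measurement of binding. The results for these 6 genes are given with their families.

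The library labelled RGLS4326 mouse 9 stood apart from the other Pcy/CD1 kidneys. Its profile over all genes correlated with the wild-type mean at r = 0.988, inside the wild-type range of 0.987 to 0.992, whereas the other 13 RGLS4326 kidneys lay at 0.930 to 0.974 and the PBS kidneys at 0.913 to 0.964. The transcript Gm8615, picked for this check after its values were seen, stood at 89.7 CPM (counts per library total, brought to a common scale with TMM factors) in that library. It stood at 84.6 to 98.6 CPM in wild type and at 0.494 CPM or lower in every other Pcy/CD1 kidney. For 29 of the 44 Wnt-system genes the value of this library fell in the wild-type range. Its values go against its label, so the strain or treatment on that label may be wrong. It is counted under its label as 1 of the 14 RGLS4326 kidneys. The main counts of treatment calls and the values of the genes they turn on are therefore given with and without it. Some further counts, such as those with a size threshold, of lower estimates or of cell markers, are given with it only. The tissue label was met in every kidney, with the summed proximal tubule markers at 4471 CPM or higher, and those markers were lower in PBS-treated than in wild-type kidneys for 6 of 6 genes.

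The first comparison asked how the Wnt system of the PBS-treated cystic kidney differed from wild type. Of the 13 ligands 11 had an adjusted p under 0.05 (84.6%, beside 74.3% of all genes), 10 of them higher in cystic kidneys and 1, Wnt5b, lower. The 10 include Wnt6 and Wnt10b, which reached the count minimum only through PBS-treated kidneys. Their choice favoured a rise, so the share of the ligands is not set above that of all genes. The median log2 fold change (log2FC) of the 13 ligands was 1.49, against 0.0102 for all genes tested. Wnt10b (1.91) lay above this median and Wnt6 (0.86) below it, so leaving out both does not move it. The canonical target Axin2, the antagonist Sfrp5 and the transcription factor Tcf7 were also higher, while the co-receptors Lrp5 and Lrp6 and the receptors Fzd4 and Fzd5 were lower. Of all 44 genes, 21 were higher, 8 lower and 15 did not pass an adjusted p under 0.05 (quasi-likelihood test of edgeR, adjusted by Benjamini and Hochberg across 15185 genes). The 29 changed genes are 65.9% of the 44. Of all genes tested 37.7% were higher and 36.6% lower, so the share was not above the background. Without the 4 genes that needed the PBS-treated kidneys to reach the minimum, 18 of 40 were higher and 8 lower. With a further demand of an absolute log2 fold change over 0.5, 25 of 44 passed, against 42.4% of all genes. The PBS and wild-type values did not overlap for 15 of the 44, against 42.2% of all genes.

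**Figure D1:**
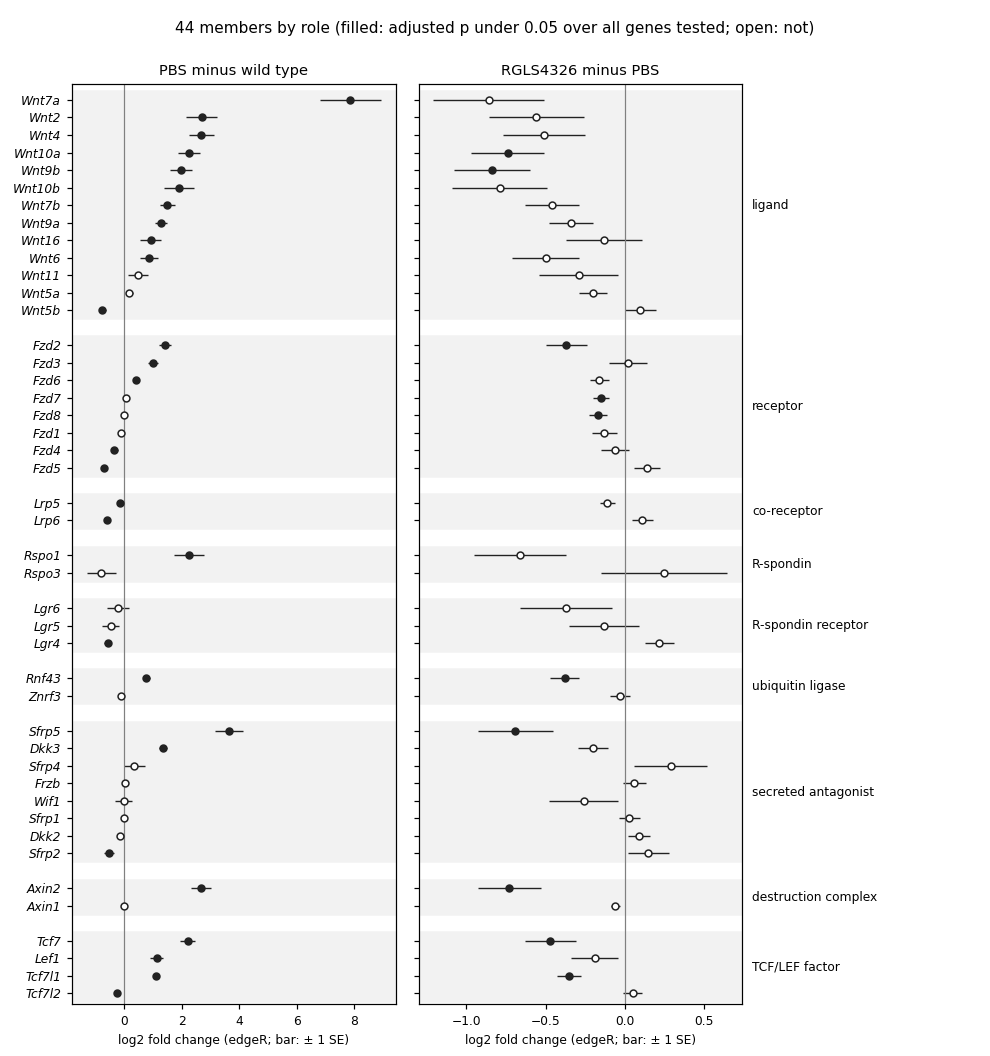
Log2 fold changes of the 44 genes, grouped by role, for PBS minus wild type (left) and RGLS4326 minus PBS (right), with bars of 1 standard error on either side. The horizontal scales differ between the panels. Filled points have an adjusted p under 0.05, adjusted across 15185 genes. In the left panel 21 genes are filled to the right of 0 and 8 to the left, and in the right panel all 10 filled points lie to the left.

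Wnt7a, a ligand known from limb and brain development, was close to absent in wild type. It gave 2 counts over the 5 wild-type mice, both in mouse 3, and its CPM was 0, 0, 0.118, 0 and 0 in wild-type mice 1 to 5. PBS-treated kidneys stood at 2.94, 5.29 and 13.97 CPM (lowest, median and highest), and RGLS4326-treated kidneys at 0, 3.97 and 8.25 CPM. Every PBS-treated kidney was above every wild-type kidney, and the RGLS4326 kidney at 0 was mouse 9. Without mouse 9 the lowest RGLS4326 value was 1.25 CPM. Pooled over mice, the ratio of PBS to wild type was 303, with a 95% counting interval of 83.8 to 2506 that covers counting error only. The edgeR adjusted p was 1.79e-07. The gene lies at chr6:91363981-91411363 on the minus strand.

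Wnt4 (chr4:137277489-137299726) stood at 1.89, 8.97, 1.36, 1.57 and 8.01 CPM in wild-type mice 1 to 5. In PBS-treated kidneys its lowest, median and highest values were 13.6, 31.4 and 43.0 CPM, all above wild type. The log2 fold change was 2.68 (standard error, SE, 0.43, adjusted p = 2.73e-06). Wnt9b (chr11:103727364-103749821) stood at 4.25, 10.8, 4.08, 3.21 and 12.2 CPM in the same wild-type mice and at 9.92, 24.3 and 51.0 CPM with PBS, so 11 of 12 PBS-treated kidneys lay above the highest wild-type kidney. Its log2 fold change was 1.97 (SE 0.38, adjusted p = 2.97e-05). Wnt7b (chr15:85535437-85582473) stood at 9.26, 24.1, 7.93, 8.78 and 22.1 CPM in wild type and at 23.2, 41.1 and 62.5 CPM with PBS, a log2 fold change of 1.49 (SE 0.26, adjusted p = 6.36e-06).

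For these 3 kidney ligands wild-type mice 2 and 5 were the high ones, and the other 3 wild-type mice lay close together. The summed markers of the collecting duct (Aqp2, Aqp3, Hsd11b2, Scnn1b, Scnn1g and Krt8) were also highest in these 2 wild-type mice, at 799 and 965 CPM against 660 to 763 CPM in the others. All 6 of those markers were higher in PBS-treated kidneys, whose sums ran from 1611 to 3317 CPM. The part of the collecting duct in the ligand values was not tested. In whole-kidney RNA, more cells of a type and more RNA per cell cannot be told apart.

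Wnt2, a ligand known from mesenchyme of lung and other organs, rose from 0.177, 0.356, 0.118, 0.363 and 0.662 CPM in wild type to a median of 2.23 CPM with PBS (lowest 0.770, highest 3.77), without overlap. Its log2 fold change was 2.69 (SE 0.54, adjusted p = 6.06e-05). Wnt10a stood at 0.472, 1.01, 0.769, 0.787 and 0.723 CPM in wild type and at 1.27, 2.94 and 5.73 CPM with PBS, again without overlap, and its log2 fold change was 2.26 (SE 0.38, adjusted p = 5.81e-06). Wnt10b was near the limit of detection, with 8 counts over all wild-type mice. Only 5 kidneys had 10 counts of it or more, all of them PBS-treated, so it entered the 44 through that group alone and its difference is given with no test. Its PBS values of 0.0997 to 0.594 CPM overlapped the wild-type values of 0 to 0.297 CPM. The markers of fibroblasts and myofibroblasts, in which Wnt2 can be made, rose for 7 of 8 genes and summed to 555 to 1186 CPM with PBS against 165 to 233 CPM in wild type. Their part in the Wnt2 result was not tested.

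Wnt9a and Wnt16 also rose, with log2 fold changes of 1.29 and 0.92, and Wnt16 was lost without wild-type mouse 3 or 4 (adjusted p up to 0.0774). Wnt6, which had at least 10 counts in 8 PBS-treated, 3 RGLS4326-treated and no wild-type kidneys, had a log2 fold change of 0.86, given with no test for the same reason as Wnt10b. The 2 ligands best known for signalling without beta-catenin did not pass, with log2 fold changes of 0.17 (SE 0.12) for Wnt5a and 0.47 (SE 0.36) for Wnt11. Their relative Wnt5b was the exception in direction, at 9.79, 10.1, 7.39, 7.99 and 7.11 CPM in wild type and 4.27 to 6.23 CPM with PBS. Wnt5b was lower in every PBS-treated kidney than in any wild-type kidney (log2FC −0.77, SE 0.13, adjusted p = 6.11e-06).

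**Figure D2:**
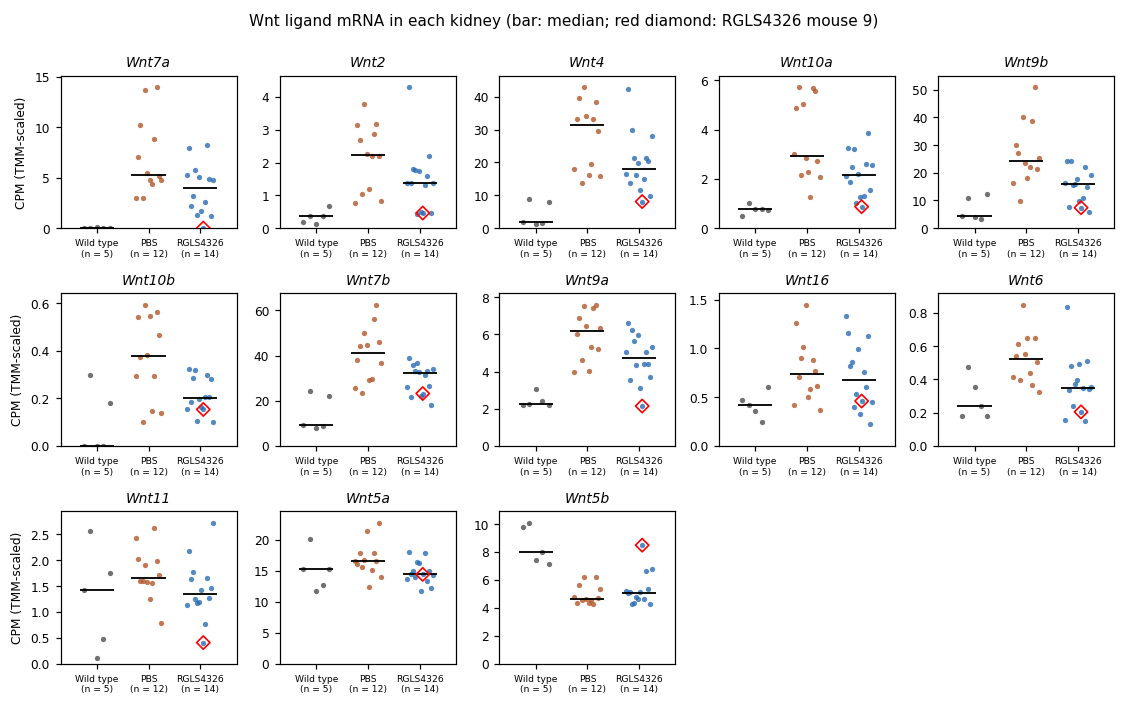
CPM of the 13 ligands in each kidney (points), by group, ordered by their change in PBS against wild type. Horizontal bars are medians, the vertical axes start at 0 and differ between panels, and a red diamond marks RGLS4326 mouse 9. Wnt7a is at 0 in 4 of 5 wild-type kidneys and in mouse 9, and Wnt5b is the only ligand with every PBS value below wild type.

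Per kilobase of exon, the order of the ligands also differed between the groups. In wild type the highest median levels were those of Wnt5b (3.01 CPM per kilobase), Wnt5a (1.96) and Wnt7b (1.89). With PBS they were those of Wnt7b (8.40 CPM per kilobase), Wnt4 (7.48) and Wnt9b (5.38), while Wnt5b stood at 1.76. These lengths are of merged GENCODE vM21 exons and not of the transcripts used in the kidney.

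Among the receptors, Fzd2, Fzd3 and Fzd6 rose, Fzd4 and Fzd5 fell, and Fzd1, Fzd7 and Fzd8 did not pass, so that 62.5% of the 8 changed beside 74.3% of all genes. Fzd2 (chr11:102604396-102608058) went from 2.71, 2.79, 2.60, 2.60 and 3.73 CPM in wild type to 4.87, 8.57 and 9.06 CPM with PBS, without overlap (log2FC 1.42, SE 0.20, adjusted p = 2.74e-07). Fzd3, which carries a miR-17 match and is known for axon guidance and planar polarity, rose from 2.37 to 3.45 CPM in wild type to 4.03 to 7.23 CPM with PBS (adjusted p = 1.39e-05), and Fzd6 rose by 0.39 on the log2 scale. Fzd5 fell by 0.71 on the log2 scale without overlap, and Fzd4, an endothelial receptor for Norrin and Wnts, fell by 0.35. Of 5 endothelial markers 2 also fell, with sums of 117 to 229 CPM with PBS against 183 to 255 CPM in wild type, and their part in the Fzd4 result was not tested. Fzd7 and Fzd8 stood within 0.04 of 0 on the log2 scale. In level per kilobase of exon the wild-type order ran from Fzd1 (21.0 CPM per kilobase) through Fzd4 (10.03), Fzd6 (5.69), Fzd7 (5.52), Fzd5 (5.03) and Fzd8 (3.11) to Fzd2 (0.741) and Fzd3 (0.241). The wild-type ranges of neighbours overlapped for Fzd6, Fzd7 and Fzd5. With PBS, Fzd6 stood at 7.94 CPM per kilobase beside 7.64 for Fzd4.

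**Figure D3:**
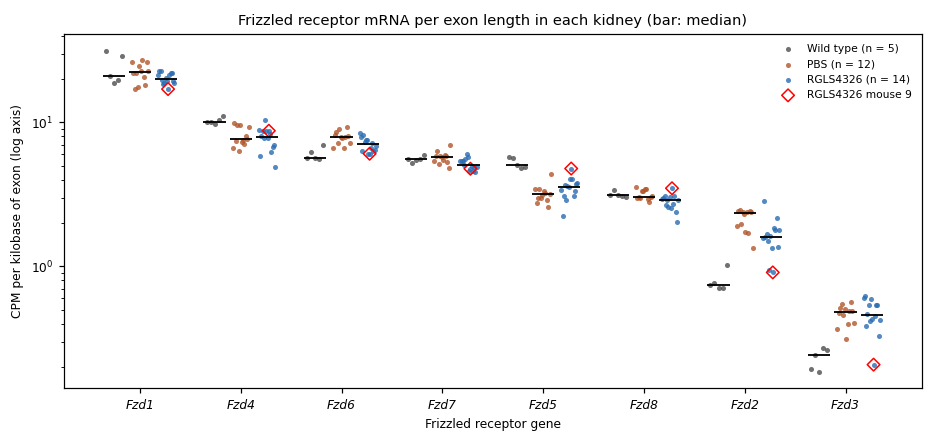
Levels of the 8 Frizzled receptors in each kidney as CPM per kilobase of exon, on a log axis, by group. Bars are medians and red diamonds mark RGLS4326 mouse 9. The 2 receptors with the lowest levels, Fzd2 and Fzd3, show the largest rise from wild type to PBS (for Fzd2 a log2 fold change of 1.42).

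The co-receptors were both lower in the cystic kidneys. Lrp6 stood at 289, 286, 263, 284 and 286 CPM in wild type and at 146, 188 and 227 CPM with PBS, without overlap (log2FC −0.62, SE 0.086, adjusted p = 2.92e-07). Lrp5 fell by 0.17 on the log2 scale (SE 0.061, adjusted p = 0.0165), a call that was lost without wild-type mouse 1 (adjusted p = 0.0744). Lgr4, the R-spondin receptor with the highest level, stood at 276, 256, 277, 285 and 318 CPM in wild type and 138, 190 and 259 CPM with PBS, with 11 of 12 PBS-treated kidneys below every wild-type kidney (log2FC −0.59, SE 0.12, adjusted p = 8.36e-05). Lgr5, which marks stem cells in the gut, had 1.18, 0.891, 0.651, 0.787 and 0.963 CPM in wild type and 0.342 to 1.28 CPM with PBS, and its log2 fold change of −0.48 (SE 0.29) did not pass (adjusted p = 0.124).

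Rspo1 was rare, with 9 counts over the wild-type mice. Its values were 0, 0.178, 0.118, 0.121 and 0.120 CPM in wild type and 0.0994, 0.521 and 0.992 CPM with PBS, with overlapping groups. It had 10 counts or more in 6 PBS-treated, 4 RGLS4326-treated and no wild-type kidneys, so its difference is given with no test. Rspo3 did not pass (log2 fold change −0.81, SE 0.51). Its wild-type values were again highest in mice 2 and 5, at 1.78 and 1.14 CPM against 0.059 to 0.237 CPM in the others. Of the ubiquitin ligases that R-spondins oppose, Rnf43 rose by 0.76 (SE 0.13, adjusted p = 9.85e-06) and Znrf3 did not pass (log2 fold change −0.12, SE 0.082).

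Of the 8 secreted antagonists 2 rose and 1 fell (37.5%, beside 74.3% of all genes). Sfrp5 (chr19:42197971-42202252), a decoy that binds Wnts, stood at 0.295, 0.238, 0.651, 0.242 and 0.120 CPM in wild type and at 1.99, 3.10 and 7.67 CPM with PBS, without overlap, a 12.5-fold difference (log2FC 3.64, SE 0.48, adjusted p = 1.24e-07). Dkk3, a member of the Dickkopf family that is released by stressed tubules, stood at 20.7, 14.8, 19.5, 19.3 and 20.7 CPM in wild type and 35.9, 47.6 and 59.3 CPM with PBS, also without overlap (log2FC 1.34, SE 0.14, adjusted p = 6.94e-09). The injured-tubule markers Lcn2, Havcr1, Krt20 and Spp1 rose too, with sums of 2785 to 6993 CPM against 325 to 846 CPM, and their part in the Dkk3 result was not tested. Sfrp2 fell by 0.55 (SE 0.17, adjusted p = 0.00477).

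The other 5 antagonists (Sfrp1, Frzb, Dkk2, Sfrp4 and Wif1) did not pass. Sfrp1, the antagonist with the highest level per kilobase of exon, stood at 140, 148, 241, 241 and 166 CPM in wild type and at 163, 185 and 206 CPM with PBS. Wild-type mice 3 and 4 lay above every PBS-treated kidney and mice 1 and 2 below, and the log2 fold change was −0.03 (SE 0.092, adjusted p = 0.783).

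Axin2 (chr11:108920349-108950783) is both a negative regulator and the most widely used readout of canonical signalling. It stood at 1.71, 2.20, 1.24, 1.09 and 2.11 CPM in wild type and at 5.10, 11.2 and 16.5 CPM with PBS, without overlap, a 6.43-fold difference (log2FC 2.68, SE 0.35, adjusted p = 9.43e-08). Axin1, its constitutive relative, did not pass (log2 fold change −0.01, SE 0.039). All 4 TCF/LEF factors changed, 3 higher and 1 lower, where 74.3% of all genes changed. Tcf7 rose from 1.18, 1.66, 1.12, 1.21 and 1.57 CPM to a median of 6.10 CPM (lowest 3.20, highest 9.24), and Tcf7l1 from 6.61, 7.66, 6.39, 6.05 and 6.14 CPM to a median of 13.6 CPM (lowest 10.9, highest 17.5), both without overlap. Their log2 fold changes were 2.20 (SE 0.27, adjusted p = 4.3e-08) and 1.09 (SE 0.11, adjusted p = 5.33e-09). Lef1 stood at 1.003, 0.832, 0.592, 0.908 and 0.783 CPM in wild type and 0.944 to 2.73 CPM with PBS, with 11 of 12 PBS-treated kidneys above the highest wild-type kidney (log2FC 1.12, SE 0.24, adjusted p = 9.69e-05). Tcf7l2, the factor with the highest wild-type level of the 4 per kilobase of exon, fell by 0.25 (SE 0.077, adjusted p = 0.00422).

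Tcf7 and Lef1 are also expressed in T lymphocytes. All 8 T-lymphocyte markers rose, and they summed to 35.5 to 51.5 CPM with PBS against 4.72 to 8.61 CPM in wild type. None of the 8 was at 0 in every library. The part of these cells in the Tcf7 and Lef1 results was not tested.

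The promoters were searched for the letters bound by TCF/LEF factors, CTTTGAT on either strand. The RefSeq table (GRCm38.p6) holds 300 bases around each start site and covered 28 of the 44 genes with 37 promoters. The motif was in 2 of the 37 (5.41%), beside 1225 of 32851 promoters of all genes (3.73%). These 2 sites are shown with the motif in capitals.

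Wnt5b promoter, chr6:119449451-119449457, gene on the minus strand: agtaagtctctCTTTGATctgctccctgt
Wnt11 promoter, chr7:98835061-98835067, gene on the plus strand, motif on the other strand: gacgtgggcggATCAAAGcgacggtccgc

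Neither Wnt5b nor Wnt11 was among the 21 genes that rose. The absence of the letters elsewhere describes these short windows only.

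Beyond the 44, 62 further genes of Wnt secretion, surface regulation, cytoplasmic relay, nuclear action and planar polarity and of common targets were listed, and 57 could be tested. In PBS against wild type 26 rose, 17 fell and 14 did not pass. The 43 changed genes are 75.4% of the 57, close to the 74.3% of all genes tested. Of the 10 genes listed as common targets 8 rose (80.0%, beside 37.7% of all genes) and none fell, with a median log2 fold change of 1.91. Other target genes stand in other lists, and not all of them rose. Axin2, Rnf43, Lef1, Tcf7 and Nkd1 rose, and Znrf3 and Lgr5 did not pass. Notum and Sp5, listed under secretion and nuclear action, fell (log2FC −0.94 and −0.41). Some of the 10 listed targets, such as Cd44, Plaur and Fn1, are also made by macrophages or fibroblasts. All 6 macrophage markers measured rose, with sums of 345 to 622 CPM with PBS against 163 to 176 CPM in wild type, as did the 7 of 8 fibroblast markers given above. The part of these cells in the target values was not tested. Myc rose by 2.39 (SE 0.30, adjusted p = 5.38e-08), Cd44 by 3.42 (SE 0.41, adjusted p = 3.6e-08) and the protease gene Mmp7 by 5.42 (SE 0.99, adjusted p = 1.58e-05), but Ccnd1 did not pass (log2 fold change −0.03, SE 0.12). Nkd1, a feedback inhibitor induced by canonical signalling, rose from 2.31 to 4.40 CPM in wild type to 5.94 to 15.7 CPM (log2FC 1.75, SE 0.24, adjusted p = 1.82e-07). Ctnnb1, which encodes beta-catenin itself, did not pass and stood at a median of 548 CPM in wild type and 524 CPM with PBS. Notum, an enzyme that removes the lipid from Wnts, fell by 0.94 (SE 0.14, adjusted p = 5.91e-07). Invs, the inversin gene of the cilium, fell by 1.02 (SE 0.11, adjusted p = 1.6e-08), and the glypican gene Gpc4 fell by 0.83 (SE 0.10, adjusted p = 3.68e-08).

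The second comparison asked what RGLS4326 changed in the cystic kidney. Of the 44 genes 10 were lower than with PBS and none was higher. They were the ligands Wnt9b and Wnt10a, the receptors Fzd2, Fzd7 and Fzd8, the ubiquitin ligase Rnf43, the antagonist Sfrp5, the target Axin2 and the transcription factors Tcf7 and Tcf7l1. The 10 genes are 22.7% of the 44, beside 15.8% of all genes tested, 9.15% of which were higher and 6.66% lower. Leaving out 1 mouse moved this count to between 2 and 18, and other settings moved it too, as given at the end. Including genes that did not pass, 32 of 44 had a lower estimate, with a median log2 fold change of −0.18 against −0.0043 for all genes. At an unadjusted p under 0.05 (edgeR) there were 21 of 44 (47.7%), beside 36.8% of all genes, and without mouse 9 also 21 of 44, beside 32.0%. With the demand of an absolute log2 fold change over 0.5, 4 remained (Axin2, Wnt9b, Wnt10a and Sfrp5), against 2.15% of all genes. Without the 4 genes that needed the PBS-treated kidneys to reach the minimum, the count was 10 of 40. The values of the RGLS4326 and PBS groups overlapped in each of the 44, and 0% of the 15185 genes tested had groups without overlap.

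Without the library labelled RGLS4326 mouse 9, 6 of the 44 were lower (Axin2, Fzd8, Lrp5, Rnf43, Tcf7l1 and Wnt9b), none was higher, and 8.14% of all genes passed. Fzd2, Fzd7, Sfrp5, Tcf7 and Wnt10a then had adjusted p-values of 0.0536 to 0.0766.

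Axin2 had a lowest, median and highest value of 2.61, 6.30 and 11.2 CPM with RGLS4326, beside 5.10, 11.2 and 16.5 CPM with PBS. All 14 RGLS4326 kidneys lay below the PBS median, and mouse 9 was the lowest. The log2 fold change was −0.73 (SE 0.20, adjusted p = 0.0242), and −0.66 without mouse 9 (adjusted p = 0.0356). Leaving out each of the 31 mice in turn kept the call in 30 models, and it was lost without PBS mouse 10 (adjusted p = 0.0587).

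Rnf43 (chr11:87662722-87735539) stood at 8.06, 9.84 and 12.5 CPM with RGLS4326 and at 8.92, 12.8 and 18.8 CPM with PBS, and again all 14 RGLS4326 kidneys lay below the PBS median. Its log2 fold change was −0.38 (SE 0.094, adjusted p = 0.0141), and −0.38 without mouse 9 (adjusted p = 0.0218). Tcf7l1 (chr6:72626378-72789254), a factor that mostly represses target genes, stood at 8.23, 11.1 and 13.8 CPM with RGLS4326 and at 10.9, 13.6 and 17.5 CPM with PBS, with 13 of 14 RGLS4326 kidneys below the PBS median. Its log2 fold change was −0.35 (SE 0.076, adjusted p = 0.00989), and −0.32 without mouse 9 (adjusted p = 0.0152). Rnf43 and Tcf7l1 were the only 2 of the 44 called in each of the 31 models that left out 1 mouse.

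Wnt9b, which carries a longer and a shorter miR-17 match shown above, was lower with RGLS4326. It stood at 5.89, 15.8 and 24.2 CPM with RGLS4326 and at 9.92, 24.3 and 51.0 CPM with PBS, and all 14 RGLS4326 kidneys lay below the PBS median. The log2 fold change was −0.84 (SE 0.24, adjusted p = 0.0265), and −0.78 without mouse 9 (adjusted p = 0.0415). The call was lost without PBS mouse 5, 9 or 10 (adjusted p up to 0.0642). Wnt10a stood at 0.869, 2.15 and 3.88 CPM with RGLS4326 and at 1.27, 2.94 and 5.73 CPM with PBS, a log2 fold change of −0.74 (SE 0.23, adjusted p = 0.0339) that held in 20 of 31 such models. Without mouse 9 it was −0.67 (adjusted p = 0.0536).

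The other 5 calls lay close to the threshold. Fzd7 fell by 0.15 on the log2 scale (SE 0.050, adjusted p = 0.0413), from a median of 26.2 to 22.8 CPM. Fzd8, which also carries a miR-17 match, fell by 0.17 (SE 0.058, adjusted p = 0.0462), from a median of 18.2 to 17.3 CPM. Fzd2 fell by 0.37 (SE 0.13, adjusted p = 0.0486), from a median of 8.57 to 5.90 CPM. Tcf7 fell by 0.47 (SE 0.16, adjusted p = 0.0475), from a median of 6.10 to 4.47 CPM, and Sfrp5 fell by 0.69 (SE 0.24, adjusted p = 0.0498), from a median of 3.10 to 2.34 CPM. When 1 mouse was left out, Fzd7 passed in 19 of 31 models, Fzd8 in 9, Fzd2 in 8, and Tcf7 and Sfrp5 in 10 each. For these 5 genes 10 to 13 of the 14 RGLS4326 kidneys were below the PBS median. Without mouse 9 the log2 fold changes were −0.14 for Fzd7, −0.20 for Fzd8, −0.32 for Fzd2, −0.40 for Tcf7 and −0.61 for Sfrp5, and of these Fzd8 passed (adjusted p = 0.0334).

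**Figure D4:**
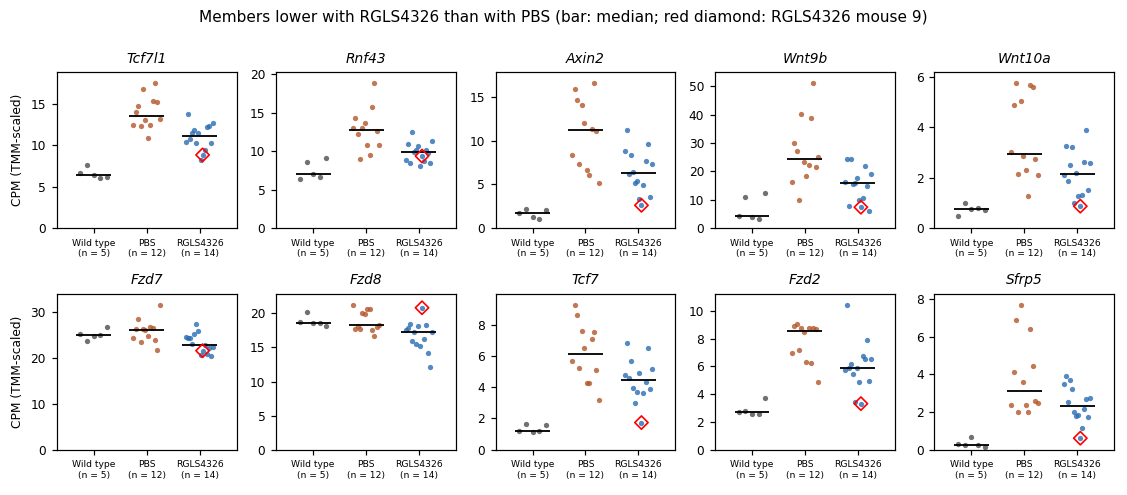
CPM in each kidney (points) of the 10 genes lower with RGLS4326 than with PBS, ordered by adjusted p. Bars are medians, vertical axes start at 0, and the red diamond marks RGLS4326 mouse 9. The groups overlap in every panel, and for Axin2, Rnf43 and Wnt9b all 14 RGLS4326 points lie below the PBS median.

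**Figure D5:**
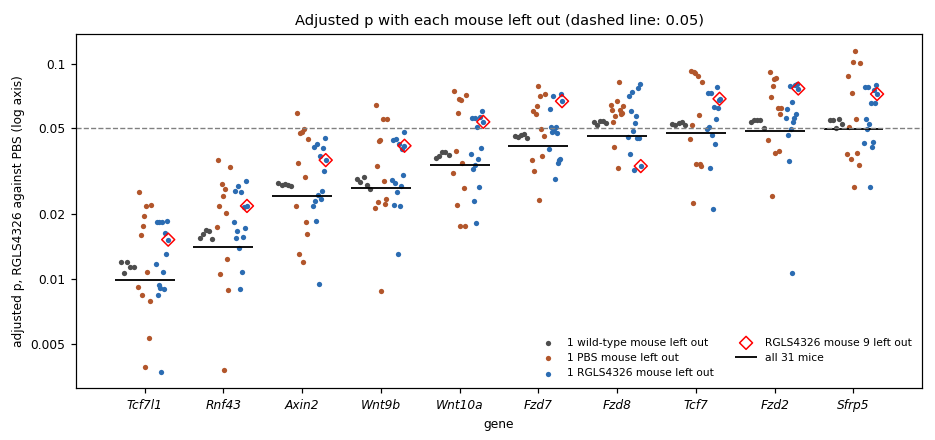
Adjusted p (log axis) of the same 10 genes for RGLS4326 against PBS when each of the 31 mice is left out (points, coloured by the group of the mouse) and with all mice (bars). The dashed line is 0.05, and a red diamond marks the model without mouse 9. Rnf43 and Tcf7l1 stay under the line throughout, while Fzd2, Fzd8, Tcf7 and Sfrp5 lie on both sides of it.

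Several ligands with large values in the cystic kidney had lower estimates with RGLS4326 that did not pass. Wnt7a had a log2 fold change of −0.86 (SE 0.35, adjusted p = 0.0762). Wnt7b stood at 18.01, 32.1 and 38.8 CPM with RGLS4326, all 14 kidneys below the PBS median of 41.1 CPM, with a log2 fold change of −0.46 (SE 0.17, adjusted p = 0.0568). Wnt4 stood at 8.08, 18.1 and 42.2 CPM, 13 of 14 below the PBS median of 31.4 CPM, with −0.51 (SE 0.26, adjusted p = 0.147). Wnt2 (−0.56, adjusted p = 0.172) was similar in size with a wide error. Without mouse 9 the log2 fold changes were −0.75 for Wnt7a, −0.44 for Wnt7b, −0.44 for Wnt4 and −0.48 for Wnt2, with adjusted p-values of 0.0806 to 0.244. Dkk3 (−0.20, adjusted p = 0.118), Lef1 (−0.19, adjusted p = 0.375), Lgr5 (−0.13, adjusted p = 0.692) and Sfrp1 (0.03, adjusted p = 0.795) did not pass either. Lgr4 stood at 165, 227 and 264 CPM with RGLS4326 and had a higher estimate (log2FC 0.22, SE 0.092, adjusted p = 0.0841), with 0.22 also without mouse 9 (adjusted p = 0.116).

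Of the 6 genes with a miR-17 match, Wnt9b and Fzd8 fell with RGLS4326 and 4 did not pass, beside 6.66% of all genes lower and 9.15% higher. The Fzd8 call held in 9 of the 31 models that left out 1 mouse. The log2 fold changes of those 4 were 0.02 (SE 0.12) for Fzd3, 0.29 (SE 0.23) for Sfrp4, 0.25 (SE 0.40) for Rspo3 and −0.13 (SE 0.24) for Wnt16. Without mouse 9 they were 0.08, 0.14, −0.02 and −0.09 in the same order, so Rspo3 turned to the other side of 0.

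Of the 13 ligands 2 fell with RGLS4326, Wnt9b and Wnt10a (15.4%, beside 15.8% of all genes called in either direction). Of the 6 collecting-duct markers 5 fell with RGLS4326 (Krt8 did not pass), and their sum was 953 to 2307 CPM with RGLS4326 against 1611 to 3317 CPM with PBS, with mouse 9 at 953 CPM and the next lowest at 1530 CPM. Of the 8 T-lymphocyte markers 1 fell (Cd2), with sums of 8.28 to 46.2 CPM against 35.5 to 51.5 CPM. The 8.28 CPM was mouse 9, and the other 13 RGLS4326 kidneys stood at 31.5 to 46.2 CPM. None of the 8 fibroblast markers passed, with sums of 264 to 1222 CPM against 555 to 1186 CPM, and of 504 CPM or higher without mouse 9. Markers of other cells were higher with RGLS4326: 2 of 6 for the proximal tubule (5872 to 13622 CPM against 4471 to 8943 CPM), 1 of 4 for the thick limb and distal tubule, and 2 of 5 for hepatocytes (median 50.2 CPM, highest 458 CPM, against a median of 24.4 and a highest of 74.7 CPM). Mouse 9 was the highest for the proximal tubule and hepatocyte sums, and without it they reached 10087 and 139 CPM. The counts of markers that passed are all from the model with mouse 9 and are not given without it. The part of these cell types in the 10 falls was not tested.

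The libraries fall into 3 series by the index numbers in their names, with 4 or 5 mice of each Pcy/CD1 group in a series. The series were numbered within each group, with a new one where the index numbers restart. The labels do not say that series of the same number in different groups were prepared together, so this match is assumed. With series as a covariate the same count of 10 genes passed. Within a series none passed by edgeR, while 0 of 43, 13 of 44 and 10 of 44 genes had an unadjusted p under 0.05 in series 1, 2 and 3. Over all genes those shares were 1.84%, 19.6% and 19.7%, beside 29.5% and 22.7% of the 44 in series 2 and 3. The within-series log2 fold changes were −0.43, −1.08 and −0.72 for Axin2, −0.21, −0.97 and −1.22 for Wnt9b, −0.25, −0.28 and −0.58 for Rnf43, and −0.21, −0.39 and −0.42 for Tcf7l1, so each kept its direction. Series 2 holds mouse 9.

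Among the other pathway genes, 8 fell and 3 rose with RGLS4326, 11 of 57 (19.3%, beside 15.8% of all genes). The falls were those of Celsr1, Celsr2, Csnk1e, Dvl2, Mmp7, Nkd1, Prickle1 and Pygo2, and the rises those of Gpc4, Invs and Tle3. Tle3, a co-repressor that TCF/LEF factors recruit, had the smallest p and rose by 0.28 (SE 0.057, adjusted p = 0.00618). The relay gene Dvl2 fell by 0.27 (SE 0.063, adjusted p = 0.0117) and the planar polarity gene Prickle1 by 0.33 (SE 0.079, adjusted p = 0.0126). Nkd1 fell by 0.44 (SE 0.15, adjusted p = 0.0469), from 5.94, 11.6 and 15.7 CPM with PBS to 4.75, 7.98 and 15.2 CPM, and mouse 9 was the lowest. Mmp7 fell by 1.62 (SE 0.46, adjusted p = 0.0259), from 3.61, 7.97 and 46.8 CPM to 0.0511, 5.91 and 12.1 CPM, with mouse 9 at 0.0511 CPM. Ctnnb1 (−0.04), Notum (0.27), Ccnd1 (0.06) and Myc (−0.27) did not pass. Without mouse 9, 5 of these 57 genes passed: Csnk1e, Dvl2, Mmp7 and Prickle1 fell and Tle3 rose. Mmp7 then had a log2 fold change of −1.51 (adjusted p = 0.0334) and Nkd1 one of −0.39 that did not pass (adjusted p = 0.0751).

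The third comparison asked what remained different from wild type under treatment. It shares the wild-type mice with the first comparison and the RGLS4326 mice with the second, and those share the PBS mice, so the counts across comparisons are not independent of each other. With RGLS4326, 27 of the 44 genes (61.4%) differed from wild type, 18 higher and 9 lower, beside 64.9% of all genes tested (32.5% higher and 32.4% lower). Without the 4 genes that needed the PBS-treated kidneys to reach the minimum, 17 of 40 were higher and 9 lower. With an absolute log2 fold change over 0.5 there were 19, against 31.5% of all genes. Without mouse 9 there were 29 (19 higher and 10 lower), against 67.5% of all genes.

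Wnt16 did not pass against wild type with RGLS4326 (adjusted p = 0.0584) and passed without mouse 9 (adjusted p = 0.0469). Fzd1 was lower than wild type with RGLS4326 (log2FC −0.24, SE 0.10, adjusted p = 0.0421), beside −0.11 in PBS against wild type and −0.13 in RGLS4326 against PBS, which did not pass. That call of Fzd1 was lost without mouse 9 (adjusted p = 0.0622) and held in 22 of the 31 models that left out 1 mouse. Axin2 was 3.88-fold above wild type with RGLS4326 and 6.43-fold with PBS, Tcf7 3.31-fold and 4.58-fold, Sfrp5 7.70-fold and 12.5-fold, Wnt9b 2.18-fold and 3.91-fold, and Rnf43 1.30-fold and 1.69-fold. Without mouse 9 the RGLS4326 values were 4.07-fold for Axin2, 3.48-fold for Tcf7, 8.17-fold for Sfrp5, 2.28-fold for Wnt9b and 1.31-fold for Rnf43, all 5 passing. For Wnt7a the pooled ratio of RGLS4326 to wild type was 166, with a 95% counting interval of 46.0 to 1376. For Fzd7 and Fzd8, the log2 fold changes of RGLS4326 against wild type were −0.11 and −0.17, and neither passed (adjusted p = 0.147 and 0.0598). Without mouse 9 Fzd8 was lower than wild type (log2FC −0.19, adjusted p = 0.0237) and Fzd7 did not pass (adjusted p = 0.194). Lgr5 was then lower too (log2FC −0.68, adjusted p = 0.0326).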

How the data were processed

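Kidney RNA of 31 mice was measured by RNA-seq. Per the labels and the study's methods, the authors prepared stranded TruSeq mRNA libraries, sequenced paired reads, trimmed them with Trim Galore, aligned them with STAR to GRCm38 and counted genes with HTSeq 0.6.1, and the deposited values are raw read counts per gene. The annotation, the STAR version and the strand setting of the counting are not given in the sources used here. The HTSeq summary lines were left out of the library sizes: 8.39% to 10.09% of reads had no feature, 0.3% to 0.41% were ambiguous and 17.83% to 21.22% were not uniquely aligned.

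Counts were tested with edgeR 4.0.16 in R 4.3.3 (TMM factors, its default expression filter, quasi-likelihood test, 1 coefficient per group over all 31 mice). Genes with an adjusted p under 0.05 over the 15185 genes tested were called. The method was also run on simulated counts with known changes, and the outcome is not given here. CPM values are scaled by TMM factors. The labels do not say whether libraries of a group came from separate animals, so p-values measure the spread between these samples, which may be technical. The genes and lists were chosen with earlier results of these data known. Values by mouse are given for genes called in RGLS4326 against PBS, for the 12 largest changes called in PBS against wild type, and for Wnt4, Wnt7b, Wnt9b, Axin2, Lef1, Tcf7, Tcf7l1, Lgr5, Lgr4, Sfrp1 and Dkk3. Of the other pathway genes, the 3 with the smallest p in each of the first 2 comparisons and Ctnnb1, Nkd1, Notum, Ccnd1, Myc and Mmp7 are named. Sp5 was added after the data were seen. Alternatives were RLE factors, DESeq2 1.42.0, no filter, only the 2 groups compared, index series as a covariate or alone, a replicate block, a size threshold and leaving out each mouse.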

Additional observations from a re-analysis of the deposited data

Results flagged for a closer look

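A gap test for a single distant sample (Dixon, 95% critical value 0.71 for 5 samples) was applied to the 5 wild-type kidneys, since the PBS and RGLS4326 groups have more than 10. It marked 6 of 44 genes (13.6%), where chance marks about 1 in 20 groups. Dkk3 was lowest in wild-type mouse 2 at 14.8 CPM, and Lrp6 was lowest in mouse 3 at 263 CPM. Fzd2 was highest in mouse 5 at 3.73 CPM, and Fzd8 was highest in mouse 2 at 20.2 CPM. Mouse 3 was highest for Wnt9a at 3.08 CPM and for Wnt7a at 0.118 CPM, the latter being the only wild-type library with a Wnt7a count. For Wnt7a 4 of the 5 values are 0, so any single count would have been marked. Without Wnt7a the test marked 5 of 43 genes (11.6%).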

How the results depend on the processing

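In PBS against wild type the count of 29 genes was unchanged with RLE factors, DESeq2 and series as a covariate. It was 22 within series 1 and 2 each and 14 within series 3, which has 1 wild-type mouse. There the other pathway genes gave 24 (43 with all mice), as did the size threshold. In RGLS4326 against wild type the count of 27 was 20 within series 1, 4 within series 2, 18 within series 2 without RGLS4326 mouse 9 (an alternative added after the data were seen) and 8 within series 3. Sfrp1 turned to a positive log2 fold change within series 1, at 0.346 for PBS and 0.402 for RGLS4326 against wild type, from values near 0 that did not pass.

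In RGLS4326 against PBS the count of 10 was 9 with RLE factors and 12 with DESeq2. It was 5 without the filter, 6 with only these 2 groups, 4 with the size threshold, and 0 within series 1, 2 or 3, also without mouse 9. The other pathway genes (11) gave 7, 5 and 1 for the first 3 of these and 0 within each series (3, 11 and 16 at an unadjusted p under 0.05, edgeR). Leaving out 1 mouse gave 2 to 18 genes, and 3 to 15 of the other pathway genes. The count moved by more than 1.5 times without PBS mice 2, 3, 5, 6, 9, 10 or 11 (4, 4, 3, 6, 3, 2 and 6 genes), without RGLS4326 mice 2, 3, 6, 8, 9, 10 or 13 (18, 4, 5, 4, 6, 4 and 4 genes), and without any 1 of the 5 wild-type mice (6 each, added after the data were seen). The cause was not tested. All of these calls among the 44 genes were falls except Lgr4, which rose without PBS mouse 7 or 8 (14 and 12 genes called).

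Replicate numbers do not pair the mice: the deviations of same-numbered PBS and RGLS4326 mice correlated at −0.405 to 0.421, over 0.1 for 4 of 12 pairs, and 1 correlated best with its own number. With the number as a replicate block 1 gene (Tcf7l1) and 1 other pathway gene passed in RGLS4326 against PBS.

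Depth limits the rare genes: Wnt7a, Wnt10b and Rspo1 had 2, 8 and 9 counts over all wild-type mice, and intervals and floors cover counting error only.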
